A study of Caenorhabditis elegans with 2 samples.

Results

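The basic helix-loop-helix (bHLH) genes of C. elegans encode transcription factors that were examined here for regions bound by F13H6.1, a zinc finger protein that the worm gene bcl-11 encodes. The members were taken by name: every protein-coding gene of the Ensembl WBcel235 annotation whose symbol starts with hlh- or mxl-, with mdl-1, lin-32, cnd-1, ngn-1, aha-1, ahr-1, hif-1, cky-1, mml-1 and sbp-1. This gave 38 of 19985 protein-coding genes. The data are chromatin immunoprecipitation with sequencing (ChIP-seq), which recovers the DNA bound to a protein and locates it by enriched reads. All samples belong to 1 group of 2 biological replicates, hermaphrodite whole late embryos of strain OP471, collected 5 hours after synchronization by egg bleaching. The strain carries unc-119(tm4063) on chromosome III and the transgene wgIs471, from which F13H6.1 is made with a C-terminal GFP-FLAG tag. An anti-GFP antibody pulled the protein down. The group is a mixture of all embryonic cell types, so weak binding in many cells and strong binding in few cells cannot be told apart. There is no second condition among the samples, and the control library was not analysed here, so whether a region marks binding of the tagged protein was not tested.

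bHLH factors bind DNA as pairs, through a basic region next to a helix-loop-helix that joins the partners. The word that many of these factors, though not all, recognise is the E-box, CANNTG. Some members control growth and lipid synthesis, such as the worm Max, Mad and Mlx relatives and SREBP. Others set the fate of single cell types, such as some of the achaete-scute, atonal and neurogenin relatives in neurons or the MyoD relative in muscle.

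The values are the regions of enrichment that the authors deposited. The pooled reads of both replicates gave 21824 permissively called regions, replicate 1 alone gave 19517 and replicate 2 alone 21972. The authors' threshold on the irreproducible discovery rate (IDR), which scores how well a region's rank holds between replicates, kept 1065 regions. They are the 1065 pooled regions of highest signal, here called thresholded regions. Signal is the value the authors' peak caller gave a region. Its scale is not stated, so it serves only to rank regions within a list. It ran from 22.2 to 1223 in the pooled list and from 82.1 upward in the thresholded list. The lists carry no read totals, so the depth of each library is unknown. A gene was counted when a region's summit lay in its promoter window, which reached 1000 bp upstream and 500 bp downstream from each transcript start in the annotation, and separately when a region overlapped the gene by at least 1 bp.

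The strongest places were at few members. To show the bases at these places, sequences are given for 6 of the members with the highest signals in a promoter window, for the thresholded region at the end of hlh-33, and for the thresholded site upstream of hif-1. The last 2 were chosen after their values were seen. Each line gives the 50 bases on each side of the summit, read from the RefSeq WBcel235 genome along the strand of the named gene. Capitals mark an E-box (CANNTG), the word TGACCA that mammalian BCL11A binds, or the word GAGAGA, on either strand.

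hlh-11, chrIII:9619407-9619507, plus strand: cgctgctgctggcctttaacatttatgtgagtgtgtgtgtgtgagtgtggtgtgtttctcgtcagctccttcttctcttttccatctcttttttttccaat
mdl-1, chrX:6742124-6742224, plus strand: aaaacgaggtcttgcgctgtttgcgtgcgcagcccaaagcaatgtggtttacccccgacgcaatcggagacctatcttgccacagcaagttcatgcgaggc
hlh-30, chrIV:4019994-4020094, minus strand: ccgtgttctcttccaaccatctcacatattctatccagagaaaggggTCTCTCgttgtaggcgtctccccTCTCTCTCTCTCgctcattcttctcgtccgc
hlh-1, chrII:4518312-4518412, plus strand: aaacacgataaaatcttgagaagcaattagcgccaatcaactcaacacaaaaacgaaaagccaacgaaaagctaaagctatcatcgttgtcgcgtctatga
cky-1, chrV:12736489-12736589, plus strand: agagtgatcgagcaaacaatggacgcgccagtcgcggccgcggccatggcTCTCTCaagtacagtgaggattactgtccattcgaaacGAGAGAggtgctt
hif-1 start region, chrV:20782415-20782515, plus strand: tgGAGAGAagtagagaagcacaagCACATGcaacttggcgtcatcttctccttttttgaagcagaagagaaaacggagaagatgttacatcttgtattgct
hlh-33 end region, chrIII:1859703-1859803, plus strand: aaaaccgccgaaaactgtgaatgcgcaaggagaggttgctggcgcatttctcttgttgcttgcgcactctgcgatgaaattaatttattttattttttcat
hif-1 upstream site, chrV:20778343-20778443, plus strand: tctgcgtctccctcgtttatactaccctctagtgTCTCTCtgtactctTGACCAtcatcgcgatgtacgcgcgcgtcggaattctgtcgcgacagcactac

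The question for the family was how many of its genes had regions. Of the 38 bHLH genes, 3 had a thresholded summit in the promoter window, namely hlh-11, mdl-1 and hlh-30. This is 7.89% (95% Wilson interval 2.72 to 20.8%, which treats genes as independent), against 3.94% of all protein-coding genes. The interval holds the 3.94%. At the permissive level 15 of 38 bHLH genes (39.5%, 25.6 to 55.3%) had a pooled summit in the window, against 36.5% of all protein-coding genes. A thresholded region overlapped 3 of the 38 genes (7.89%), against 2.92% of all protein-coding genes. These were hlh-30, mdl-1 and hlh-33, and only hlh-30 had the summit itself between its ends. A pooled region overlapped 15 of the 38 (39.5%), against 42% of all protein-coding genes. The highest pooled signal in the window had a median of 33.3 over the 15 bHLH genes with a summit there, and of 34.8 over the 7278 other coding genes with 1. In all, 19 members had a pooled region in the window or in the gene, and 19 had neither. The share with either over all protein-coding genes is not given here, so these counts have no background beside them.

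**Figure D1:**
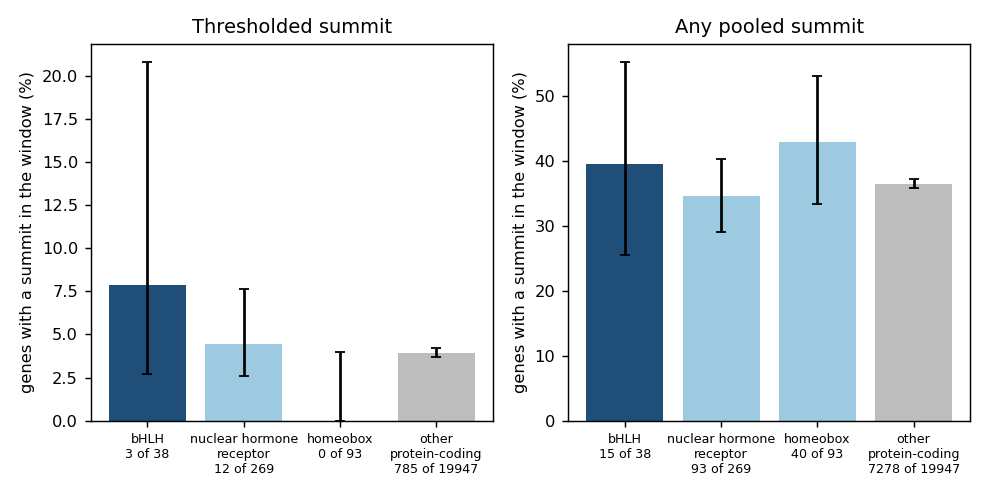
Share of genes with a thresholded summit (left) and with any pooled summit (right) in the promoter window, in percent, with 95% Wilson intervals as error bars. The bHLH genes stand at 7.89% and 39.5%, the other protein-coding genes at 3.94% and 36.5%, and both bHLH intervals hold the values of the other genes.

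The share of genes with a thresholded summit was compared with those of other transcription factor families of the worm. It was 3 of 38 for bHLH genes, 12 of 269 (4.46%, 2.57 to 7.63%) for nuclear hormone receptor genes and 0 of 93 (0 to 3.97%) for homeobox genes. The bHLH interval overlaps both of the others, but overlap of intervals does not test a difference, and the families were not tested against each other. At the permissive level the shares were 39.5% for bHLH genes, 34.6% for nuclear hormone receptor genes and 43% for homeobox genes. The number of transcript starts differed among the bHLH genes, and a gene with more starts has a wider window in total. Of the 29 bHLH genes with 1 start, 1 had a thresholded summit (3.45%), against 3% of other coding genes with 1 start. Of the 5 with 2 or 3 starts, 0 had a thresholded summit, against 5.61% of other coding genes with as many, and 1 had a pooled summit (20%), against 48.4%. Of the 4 with 4 or more starts (hlh-11, hlh-30, hlh-1 and hif-1), 2 had one, against 10% of other coding genes with 4 or more. Per Mb of promoter window, bHLH genes held 58.6 thresholded summits and other coding genes 23.2, from 4 and 832 pairs of a gene and a summit. A summit in the windows of several genes counts for each. Of the 4, 2 were at hlh-30, and the difference was not tested.

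**Figure D2:**
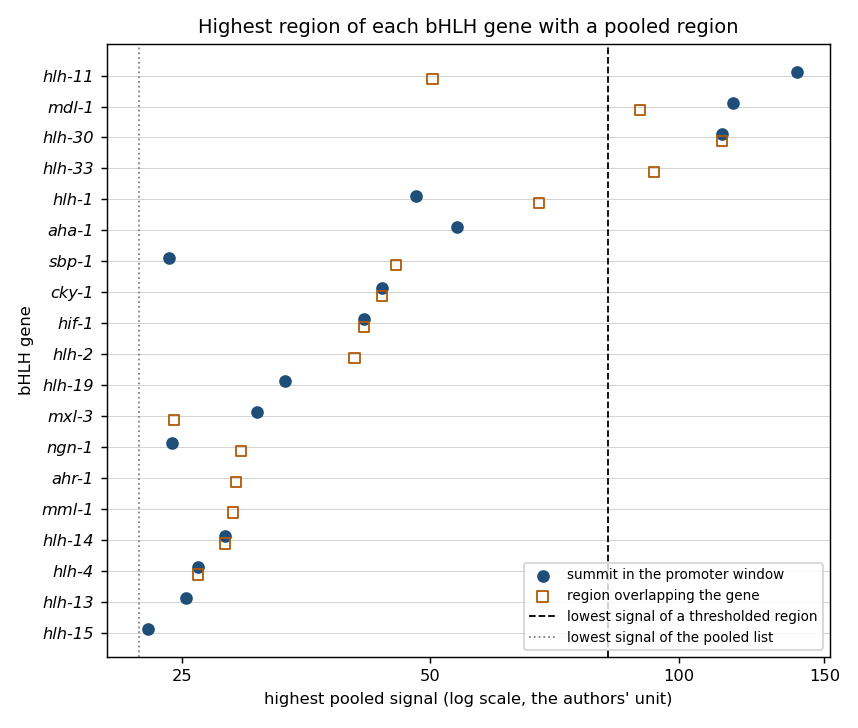
Highest pooled signal of the 19 bHLH genes with a pooled region, on a log axis in the authors' unit, for summits in the promoter window (circles) and regions overlapping the gene (squares). The dashed line is the lowest thresholded signal, 82.1, with hlh-11, mdl-1, hlh-30 and hlh-33 to its right, and the dotted line is the lowest pooled signal, 22.2.

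The highest signal in a bHLH promoter window was at hlh-11 (WBGene00001955), which encodes the worm relative of the vertebrate factor AP-4. The region lay between genes on chromosome III (chrIII:9619229-9619684), with its summit 254 bp upstream of a transcript start and in no other gene's window. It had a pooled signal of 138.8 and rank 316 of 21824. In replicate 1 the overlapping region had a signal of 57.7 and rank 495, and in replicate 2 a signal of 85.6 and rank 201. Both replicates therefore placed it among their 1065 highest regions. The replicate 2 summit fell at the same base as the pooled summit, and that of replicate 1 lay 183 bp away. The other 4 regions of hlh-11 were not thresholded. The highest of these was in an intron, 719 bp downstream of a start, with a signal of 50.3. It was found in both replicates, at ranks 5933 and 3444. A region overlapping the strongest had its summit 53 bp from a start and a signal of 23.4. The remaining ones lay in a coding exon and in the 3′ UTR, with signals of 24.4 and 26.03.

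The Myc, Max, Mlx and SREBP group had 6 members, of which mdl-1 was alone in having thresholded regions. Over all protein-coding genes, 3.94% had a thresholded summit in the window and 2.92% a thresholded region in the gene. The gene mdl-1 (WBGene00003163) encodes the worm Mad-like partner of MXL-1, the Max relative. Its promoter region (chrX:6742067-6742347) was intergenic, with the summit 177 bp upstream of its only start, a pooled signal of 116.2 and rank 490. Replicate 1 gave it a signal of 40.3 and rank 1140, just below its 1065 highest regions, and replicate 2 a signal of 78.7 and rank 259. With replicate 1 alone, mdl-1 therefore left the count of 3, and aha-1 entered it. A second thresholded region (chrX:6743735-6744190, signal 89.7, rank 882) overlapped the 3′ end of mdl-1. Its summit lay past the end of the gene, 309 bp from the start of the noncoding RNA gene R03E9.7, and it ranked 811 and 938 in the replicates. Another region, in an intron, had a signal of 30.7 and was found in replicate 2 only.

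The other members of that group were weak. The gene sbp-1, for the SREBP relative that controls fatty acid synthesis, had 5 regions over its 14.2 kb. The highest lay in a coding exon 933 bp from the start, with a signal of 45.5 and ranks 3766 and 6398 in the replicates. Its window held a summit of signal 24.1, near the bottom of the list. The gene mxl-3, a Max-like gene, had a window summit of signal 30.8 in the noncoding RNA gene C49F8.5, found in replicate 2 only. The gene mml-1, for the Mondo-like partner of MXL-2, had pooled regions of 28.8 and 22.2 far from its starts. Replicate 2 alone gave mml-1 a window summit of signal 17.4 at rank 11814. For mxl-1 and mxl-2 no pooled region was listed in the window or the gene, and replicate 2 alone gave mxl-1 a window summit of signal 13.8 at rank 19797.

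The gene hlh-30 (WBGene00020930), which encodes the worm TFEB, a regulator of autophagy and lysosome genes, had the most regions of any member, 13 over its 20.2 kb and 10 transcript starts. The highest (chrIV:4019816-4020271) was in an intron, with a signal of 112.8 and rank 525. It ranked 424 in replicate 1 and 682 in replicate 2, with summits 48 and 10 bp from the pooled one. This summit lay exactly 1000 bp upstream of the nearest start of hlh-30, at the edge of the window, and 54 bp from the start of the noncoding RNA gene W02C12.4. The next (chrIV:4028085-4028540) was also intronic, 186 bp upstream of an internal start, with a signal of 97.0, rank 745, and ranks 699 and 786 in the replicates. Both were among the 1065 highest of each replicate. At the first start of the gene, the 5′ end, a region had a signal of 38.7 and no counterpart in replicate 2. The region next in signal, 68.8, lay in an intron 2846 bp from a start. It ranked 808 in replicate 2 and 8590 in replicate 1, and it was not thresholded.

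**Figure D3:**
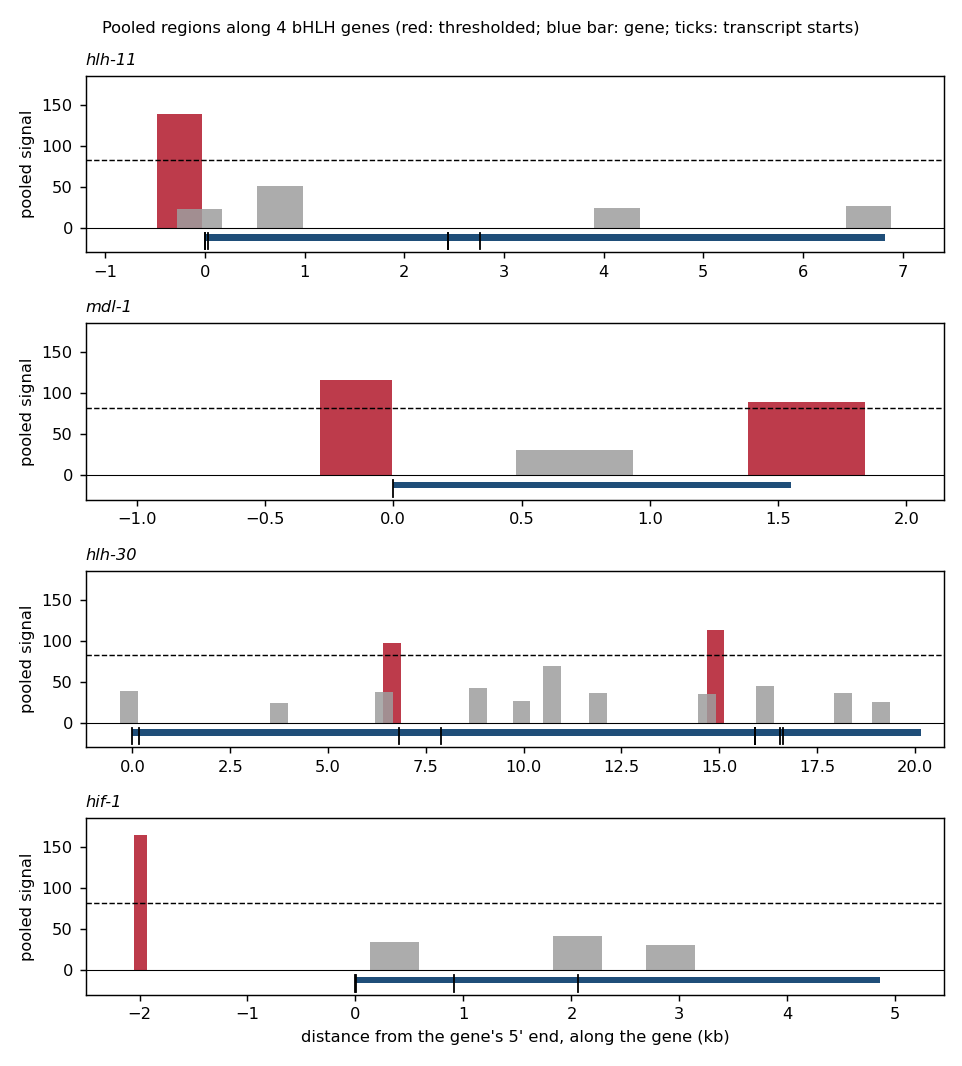
Pooled regions along hlh-11, mdl-1, hlh-30 and hif-1, with the distance from the gene's 5′ end in kb on the x axis and the pooled signal on the y axis, thresholded regions in red, the gene as a blue bar, transcript starts as ticks and the lowest thresholded signal as a dashed line. The thresholded regions of hlh-30 lie inside the gene, 1000 and 186 bp upstream of internal starts, and that of hif-1 lies 2014 bp upstream of its 5′ end.

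The PAS group joins bHLH factors with a PAS domain, several of which respond to oxygen, small molecules or neuronal activity. None of its 5 members had a thresholded summit in a window, against 3.94% of all protein-coding genes with one. For hif-1 (WBGene00001851), the worm hypoxia-inducible factor, 3 pooled regions lay inside the gene, with signals of 41.5, 34.1 and 30.7. The highest had its summit 7 bp from a transcript start and ranked 1746 in replicate 1, with no counterpart in replicate 2. A stronger region lay farther upstream, outside both the 1000 bp window and one of 2000 bp, and it is named here after its values were seen. It was intergenic (chrV:20778356-20778479), 2014 bp upstream of the 5′ end of hif-1, which is the nearest start of any annotated gene. Its signal was 164.2, its rank 204, and its ranks in the replicates 421 and 145. It is stronger than any region in a bHLH promoter window, and no gene's window holds it. Its bases hold TGACCA, as do those of 40 of the 1065 thresholded regions (3.76%).

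The gene aha-1 encodes the worm ARNT, the partner of HIF-1 and AHR-1. Its highest window region, on chromosome I, had a signal of 53.9 and rank 2712, the highest among members without a thresholded region in the window. The summit lay 317 bp upstream of aha-1 and 7 bp from the start of its neighbour C25A1.15. The overlapping region of replicate 1 had rank 911, and replicate 2 had none that overlapped it. A second window region, of signal 42.4, lay in a coding exon of C25A1.15 and overlapped the same replicate 1 region. The gene cky-1, a relative of NPAS4, had a summit 164 bp upstream of its start with a signal of 43.7. Replicate 2 ranked it 2518 and replicate 1 ranked it 18555. The aryl hydrocarbon receptor gene ahr-1 had a region of signal 29.0 in a coding exon of cylc-2, which lies within ahr-1. The remaining PAS gene, hlh-34, had no pooled region, and replicate 1 alone gave a window summit of signal 13.8 at rank 19215.

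In the mesoderm group, hlh-1, the worm MyoD and a regulator of body wall muscle, had 4 regions. The highest was intronic, 1327 bp downstream of a start (chrII:4520166-4520621), with a signal of 67.7 and rank 1610. It was found in both replicates at nearly the pooled summit, at ranks 2632 and 1837. At the first start, overlapping regions had summits 212 bp upstream and 13 bp downstream, with signals of 48.1 and 38.6. The Twist gene hlh-8 had no pooled region, and replicate 2 alone gave a window summit of signal 14.9 at rank 16864. The gene hlh-2, whose product is the E protein that pairs with many tissue-specific bHLH factors, had 1 pooled region, in a coding exon. Its signal was 40.5 and its ranks in the replicates 10449 and 6084. Replicate 2 alone gave hlh-2 a window summit of signal 15.2 at rank 16069.

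The 9 genes of the proneural group, relatives of achaete-scute, atonal, neurogenin and NeuroD, had 0 thresholded regions and 4 pooled window summits. Over all protein-coding genes the shares were 3.94% and 36.5%, so counts this small lie near the background. These were hlh-19 (signal 33.3), hlh-14 (28.2), hlh-4 (26.2) and ngn-1 (24.3). No region of these genes overlapped a region of both replicates. The hlh-19 summit lay 702 bp from hlh-19 and 160 bp from the start of the protease gene nas-38. For lin-32, the atonal relative, cnd-1, the NeuroD relative, and for hlh-3, hlh-6 and hlh-12, no pooled region was listed in the window or the gene. In replicate 1 alone, a region overlapped lin-32 and another overlapped cnd-1. Of the 7 Ptf1a-like, NHLH-like and Olig-like genes, 2 had pooled window summits, against 36.5% of all protein-coding genes. They were hlh-13 and hlh-15, with signals of 25.3 and 22.7, each found in replicate 2 only. The others, hlh-10, hlh-16, hlh-17, hlh-31 and hlh-32, had none. For hlh-16, replicate 1 alone gave a window summit of signal 16.6 at rank 12431.

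None of the 5 REF-1 family genes, hlh-25 to hlh-29, which respond to Notch signals in the embryo, had a pooled region in the window or the gene. Over all protein-coding genes, 36.5% had a pooled summit in the window and 42% a pooled region in the gene. The difference was not tested. Near-identical copies share reads, so values at 4 of the REF-1 family genes are uncertain. The predicted proteins of hlh-28 and hlh-29 were identical at 237 of 239 residues, and those of hlh-25 and hlh-27 at 264 of 268. The protein of hlh-26 was 35.2 to 41.9% identical to the others. Of the 31-letter words in the promoter windows, 20.5% were found once in the genome for hlh-28, 21.1% for hlh-29, 56.5% for hlh-25 and 56.7% for hlh-27. It was 80.2% for hlh-17 and 90.6% for ngn-1, and at least 95% for the other 32 members. The part of repeated sequence in the absence of regions was not tested.

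The gene hlh-33 overlapped a thresholded region (chrIII:1859525-1859980, signal 93.3, rank 812) at its 3′ end. The summit was intergenic, past the end of hlh-33. It lay 135 bp from the start of ddp-1, which encodes a small mitochondrial import protein, and in the windows of ddp-1 and ttc-7. It ranked 1360 in replicate 1 and 615 in replicate 2. With replicate 1 alone this gene left the count of genes overlapping a high region, which was then 2. No summit lay in the promoter window of hlh-33.

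**Figure D4:**
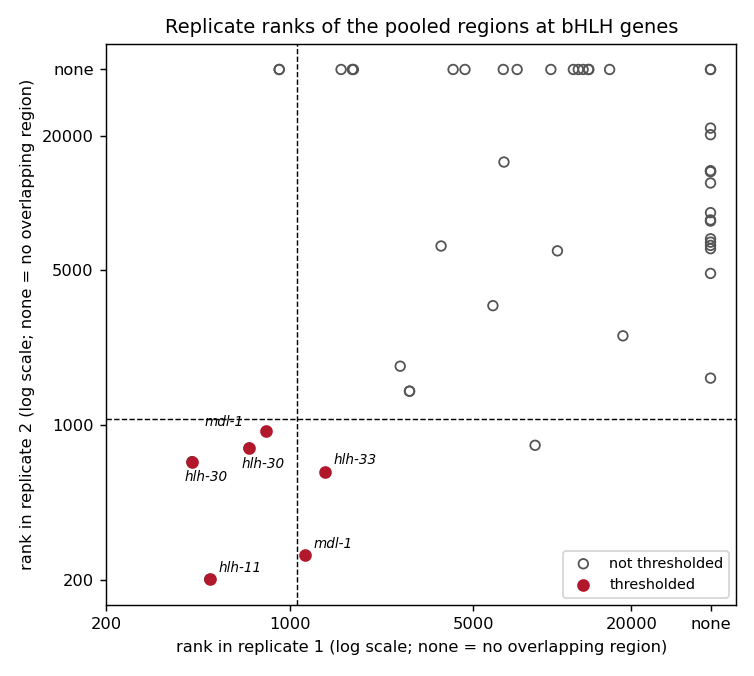
Rank of each of the 51 pooled regions at bHLH genes in replicate 1 (x axis) and replicate 2 (y axis), both on log axes, with regions absent from a replicate at "none" and dashed lines at rank 1065. Of the 6 thresholded regions in red, 4 lie within the 1065 highest of both replicates and 2 within those of replicate 2 alone. Pooled regions that overlap the same replicate regions are drawn at the same place, and 3 open circles lie under red ones.

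Over the whole family, 51 pooled regions lay in a window or overlapped a gene. Of these, 6 were thresholded (11.8%), against 4.88% of all pooled regions, whether at genes or not. The genes hlh-30 and mdl-1 gave 2 of the 6 each, and the difference was not tested. The median signal of the 51 was 34.1, against 30.8 over all pooled regions. Of the 51, 18 were overlapped by a region in both replicates (35.3%), against 48.5% of all pooled regions, a difference that was not tested. The gene hlh-30 alone gave 13 of the 51. Of the 6 thresholded regions, 4 were among the 1065 highest of both replicates, and the mdl-1 promoter and hlh-33 regions fell below in replicate 1. By place, 4 of the 6 thresholded summits were intergenic and 2 were in introns. Of the 51 regions, 12 had the summit in a coding exon, and none of these was thresholded. Shares of these classes over all regions are not given here, so no contrast is drawn.

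Words were sought on both strands within 50 bp of each summit. An E-box was present at 10 of 23 pooled regions in bHLH windows (43.5%), against 34% of pooled regions in all coding windows, and at 1 of 6 thresholded regions (16.7%), against 34.2% of all thresholded regions. TGACCA was at 0 of 23, against 3.82%, and CACGTG at 0 of 23, against 2.47%. These are descriptions over few regions, and a word in a window is not evidence of a bound site. The bHLH window regions had a median GC content of 46.5%, against 42.6% for those of all coding windows.

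The other genes of the pathways were read from lists of 41 genes, chosen with earlier results of these data known. All 41 were found in the annotation. Of these 41, 3 had a thresholded summit in the window, against 3.94% of all protein-coding genes, and 22 a pooled summit, against 36.5%. The differences were not tested, and the counts per list that follow are to be read against the same shares. The TFEB and autophagy list had 2 of 9 thresholded in the window, lgg-1, the autophagosome marker of the Atg8 family (signal 94.8, ranks 604 and 1131 in the replicates), and flcn-1, the folliculin gene (89.9, ranks 841 and 1391). Both ranked below the 1065 highest of replicate 2. The Notch list, upstream of the REF-1 genes, had 1 of 11, sup-17, the ADAM-family protease gene (97.4, ranks 635 and 1068). In that list lag-1, the CSL factor that drives REF-1 genes, also overlapped a thresholded region (127.3, ranks 335 and 360). The hypoxia list had 0 of 6 thresholded and 3 of 6 pooled summits, the SREBP list 0 of 8 and 2 of 8, and the mesoderm list 0 of 4 and 1 of 4. Of the 3 bHLH genes outside the naming rule, ref-1 and lin-22 had weak pooled summits (28.7 and 40.3) and hnd-1 had none.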

How the data were processed

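Tagged F13H6.1 was measured by ChIP-seq in 2 replicates of late embryos. Per the labels and the deposited file lists, the authors aligned reads to ce11 and ce10 and derived permissive regions from each replicate and from both together, with a further file that their control-normalized tracks also used. An IDR threshold then gave the shorter list. No aligner, peak caller, version or IDR level is given in the sources used here. The deposited value per region is the signal in the authors' unstated scale, read only for ranks within 1 list. All values come from the ce11 lists, which match the WBcel235 build of Ensembl release 115. The ce10 lists were not converted and gave only the size of their thresholded list, 1362. Positions are 1-based.

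Regions were assigned to genes as the text states, and ranks in a replicate are those of its highest region overlapping the pooled one by 1 bp or more. Pooled regions can overlap each other, so 1 replicate region can serve several. A summit counts as near a tRNA, snoRNA or snRNA gene within 100 bp. The assignment code was tested on simulated summits planted at 200 genes, and 200 were found in a run over 19973 genes. Members, lists and role groups were chosen with earlier results of these data known. The word GAGAGA was added after the sequences were seen. With 1 group there was no test between conditions, and depth is unknown. RefSeq gave the same gene ends for 32 of 38 members and other ends for 6. Protein identity came from a global alignment (BLOSUM62, gap penalties 11 and 1) of the longest translated coding sequence. Every member is named, with fuller values for those with a thresholded region and the 15 with the highest window signals. The replicates are biological per the labels, and no test treats them as a group. Python 3.11.15, numpy 2.4.6, pandas 2.3.3, scipy 1.17.1, biopython 1.88 and matplotlib 3.10.9 were used.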

Additional observations from a re-analysis of the deposited data

How the results depend on the processing

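The count of 3 bHLH genes with a thresholded summit in the window stayed at 3 with windows of 500 or 2000 bp upstream, with any overlap, with the 532 strongest sites, with the 1362 highest pooled regions and with replicate 2 alone, in each case the same 3 genes. The share of bHLH genes was thus 7.89%, while that of all coding genes was 3.08%, 5.19%, 2.03%, 4.88% and 3.81% for the 500 bp, 2000 bp, 532-site, 1362-region and replicate 2 settings. The count was 2 with gene 5′ ends only, where hlh-30 was lost (5.26%, against 3.59% of all coding genes). With each site given to its nearest coding start, chosen after seeing the data, it was 5 (13.2%), against 4.77% of all coding genes, hif-1 and lin-32 being added. The count was 3 with either replicate left out, though without replicate 2 mdl-1 was replaced by aha-1. Of the 3 genes overlapping a thresholded region, 1 remained, hlh-30, with the summit inside the gene, with the region wholly inside it, and with the 532 strongest sites. Shares over all coding genes under these settings are not given here, so this fall has no background beside it. The 15 genes with a pooled summit fell to 9 with the 10912 strongest pooled regions (23.7%, against 22.5% of all coding genes). Under the other settings the count ranged from 13 with 500 bp upstream (34.2%, against 29.3%) to 20 with 2000 bp (52.6%, against 46.6%). Without replicate 1 it was 13 (34.2%, against 36.3% of all coding genes), of which 9 were among the 15. Without replicate 2 it was 13 (34.2%, against 33.9%), of which 11 were. The median signal of 33.3 in the window was 41.5 with 500 bp upstream and 36.1 with 2000 bp. Of 43 single-gene signals under the changed windows, 40 stayed and 3 moved. The 43 leave out hlh-19 and sbp-1 with 500 bp upstream, where neither had a summit, and they include no changed list. The highest window signal of hlh-30 was 97.0 with 500 bp upstream and 38.7 with the gene 5′ end only, and that of hif-1 was 34.1 with the 5′ end only. The cause of these moves was not tested beyond the changed window or list itself. Control libraries and depth, which limit what a region shows, were not analysed here.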

Other observations

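Thresholded sites also lay near other bHLH genes without reaching their windows. The site 2912 bp downstream of the start of lin-32 (chrX:2226982-2227437, signal 125.1, ranks 464 and 416 in the replicates) had its summit within a tRNA gene, 52 bp from that gene's start. That 3384 bp upstream of hlh-27 (chrII:5543369-5543824, signal 107.0, ranks 789 and 507) lay 1 bp from the start of sls-2.2, a spliced leader RNA gene annotated as snRNA. The site 5453 bp upstream of mxl-1 (chrV:11239158-11239613, signal 149.7, ranks 284 and 278) lay 55 bp from the start of dvc-1 and in the windows of dvc-1 and ima-1. These sites were named after their values were seen.

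The word GAGAGA, chosen after the sequences were seen, was within 50 bp of the summit at 8 of 23 pooled regions in bHLH windows (34.8%), against 13% of pooled regions in all coding windows. Among thresholded regions it was at 2 of the 6 at bHLH genes (33.3%) and at 27.9% of all 1065. The sequences seen include regions counted here, so neither contrast can be read as enrichment of the word. Of the 23 regions, hlh-30 gave 5, and the differences were not tested. The hlh-30 region of highest signal holds 5 matches, some overlapping, and the cky-1 region 2.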
